A study of Homo sapiens with 8 samples.

Results

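H3K27me3 islands of the wild-type EZH2 line LY19WT on chromosomes 1 to 22 are described here, 57854 of the 58144 islands in this line's list and of the 105576 islands in the lists of the series. All islands on the autosomes were taken, with no choice by level. LY19WT is an untreated immortalized lymphoma B-cell line labelled as EZH2 wild type, kept at passages 10 to 15. The other line of the series expresses EZH2-Y646F from a CMV promoter and was not compared. The ChIP signal came from 3 replicate libraries made with a monoclonal antibody against H3K27me3, which the authors merged, and the control was 1 input library of sonicated chromatin without immunoprecipitation. Because the replicates had been merged before islands were called, no value below has a replicate error, and no test between samples was possible. Intervals are exact 95% Poisson intervals and cover counting error only.

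H3K27me3 is the trimethyl mark on lysine 27 of histone H3. It is written by Polycomb repressive complex 2, whose catalytic subunit is EZH2 and whose core also holds SUZ12 and EED, and it is bound by the CBX proteins of Polycomb repressive complex 1. The mark is associated with silent genes, in particular developmental transcription factor genes outside their lineage, and EZH2 is highly expressed in germinal centre B cells, where many B-cell lymphomas arise. An island is a run of enriched windows joined across short gaps. Gene names were placed from general knowledge of hg19 gene positions, with each locus rounded outward to 10 kb, since no hg19 annotation was used. The loci were written down after the islands had been seen. A name therefore tells which locus an island lies in or beside, not which exon, intron or start site it covers.

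Promoters of 4 loci that recur below are shown because loci under islands include CpG-rich starts and starts with less CpG than the median promoter. A CpG-rich start can also lie in a locus without islands. The 4 promoters were picked as illustrations after the CpG content and island cover of a larger set of genes had been looked at. Their positions within hg19 islands were not determined. They are RefSeq sequences of build GRCh38.p14, from 250 bases before to 50 bases after the start, read 5′ to 3′ on the gene's strand, with CpG dinucleotides in capitals. TBX20 and PAX5 lie on the minus strand, and TNF and CD28 on the plus strand. The windows of TBX20, TNF and CD28 were covered to 100% by islands, and that of PAX5 held none.
TBX20: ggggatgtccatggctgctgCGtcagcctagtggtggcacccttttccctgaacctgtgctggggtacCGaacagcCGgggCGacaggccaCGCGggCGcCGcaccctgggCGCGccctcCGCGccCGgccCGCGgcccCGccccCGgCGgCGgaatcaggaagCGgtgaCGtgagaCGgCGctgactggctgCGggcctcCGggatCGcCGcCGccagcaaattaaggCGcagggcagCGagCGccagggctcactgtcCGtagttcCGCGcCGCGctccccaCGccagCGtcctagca
TNF: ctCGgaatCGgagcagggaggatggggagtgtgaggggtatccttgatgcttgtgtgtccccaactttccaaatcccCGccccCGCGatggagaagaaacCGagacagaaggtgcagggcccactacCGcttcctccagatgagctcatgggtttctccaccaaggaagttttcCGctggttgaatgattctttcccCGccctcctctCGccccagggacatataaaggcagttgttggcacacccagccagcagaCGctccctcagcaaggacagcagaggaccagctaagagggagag
CD28: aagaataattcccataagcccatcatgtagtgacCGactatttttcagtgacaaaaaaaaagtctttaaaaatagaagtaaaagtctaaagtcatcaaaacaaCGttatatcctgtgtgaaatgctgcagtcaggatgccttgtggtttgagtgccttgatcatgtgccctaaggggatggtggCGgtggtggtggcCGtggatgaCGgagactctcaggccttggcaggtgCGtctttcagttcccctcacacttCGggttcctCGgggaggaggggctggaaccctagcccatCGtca
PAX5: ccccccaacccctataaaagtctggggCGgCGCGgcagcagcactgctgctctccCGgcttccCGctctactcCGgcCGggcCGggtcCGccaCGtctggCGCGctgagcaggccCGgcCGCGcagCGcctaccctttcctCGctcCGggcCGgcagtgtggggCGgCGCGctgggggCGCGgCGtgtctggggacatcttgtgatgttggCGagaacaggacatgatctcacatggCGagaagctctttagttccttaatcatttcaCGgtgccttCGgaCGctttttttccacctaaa
TBX20, a cardiac T-box factor, had 38 CpG in these 300 bases and an observed over expected CpG ratio of 0.943. PAX5, the B-cell identity factor, had 30 and a ratio of 0.949. The ratio was 0.441 at TNF, a pro-inflammatory cytokine gene, and 0.521 at CD28, a T-cell costimulatory receptor gene. Over the first listed promoter of each of 27305 symbols the median ratio was 0.580. Of these promoters, 43.4% had a lower ratio than TNF and 47.2% a lower ratio than CD28. Of the 144 single loci in the gene lists below, 101 had a promoter in the table. The median ratio was 0.714 over 28 loci covered to at least 50%, 0.782 over 34 with islands but less cover, and 0.863 over 39 without an island. The share of promoters with a ratio over 0.6 was ordered differently, at 60.7%, 79.4% and 69.2%, and the median GC content was 67.0%, 64.5% and 63.3% in the same order of groups. The measures thus do not rank the groups alike, and the genes were chosen by name.

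The islands covered 553.3 Mb, or 19.9% of the 2775 Mb between the first and last island of each autosome. They held 37491123 ChIP reads and 4944098 input reads. The median island was 5.8 kb wide, with quartiles of 3.6 and 10.6 kb, and carried 327 ChIP reads (interval 292.5 to 364.4) and 49 input reads (36.3 to 64.8). Counting error on the input is thus the larger part of the error behind the fold of a typical island. The median density was 57.4 ChIP reads per kb against 8.41 input reads per kb, and the median authors' fold, the ChIP count over the scaled input count, was 2.28. Density had a sharp floor. The 1st percentile was 42.5 ChIP reads per kb and the 25th was 51.6, whereas the 99th was 100.2 and the highest 353.0. For input the 1st percentile was 4.55 reads per kb and the 99th was 14.1.

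Broad islands were few and held much of the marked length. Islands under 5 kb made up 43.5% of the number and 15.3% of the covered length. The 4778 islands of 20 to 50 kb made up 8.26% of the number and 25.2% of the length, and the 893 islands over 50 kb 1.54% and 12.7%. In order of width, the 9677 widest islands, 16.7% of all, reached 50% of the covered length, down to a width of 14.2 kb. Only 138 islands were wider than 100 kb and 19 wider than 200 kb.

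**Figure D1:**
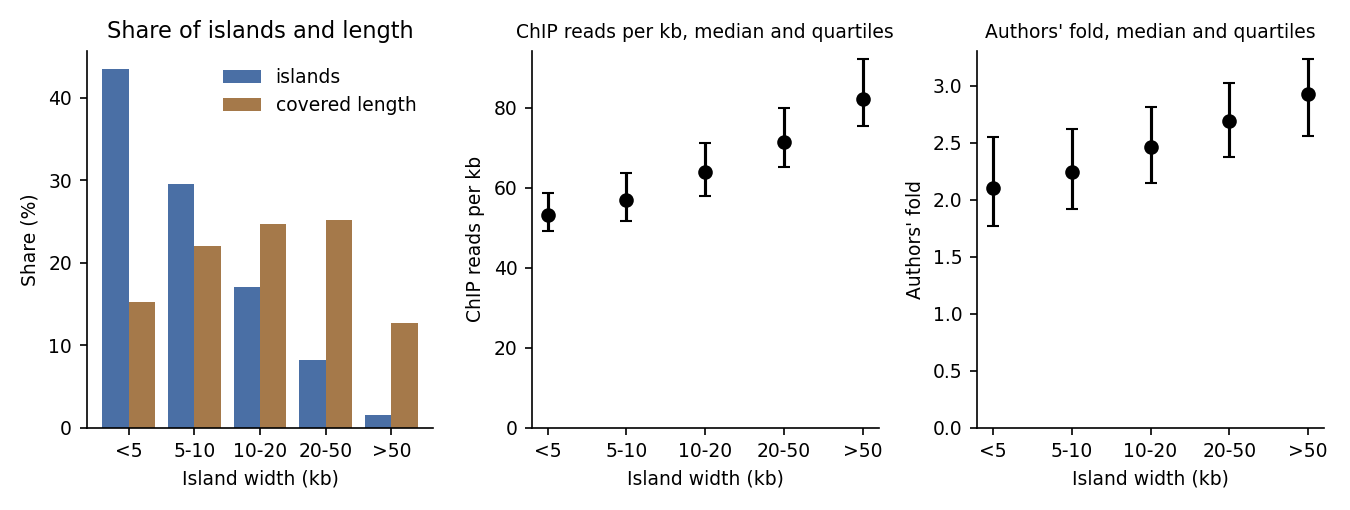
Share of islands and of covered length (%, left), ChIP reads per kb (middle) and authors' fold (right) by island width in kb; points are medians over islands and bars reach from the lower to the upper quartile, not a replicate error. Density and fold are higher in each wider class, from 53.3 to 82.3 reads per kb and from 2.11 to 2.93.

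Wider islands were also denser. The median ChIP density was 53.3 reads per kb under 5 kb, 57.1 at 5 to 10 kb, 63.9 at 10 to 20 kb, 71.4 at 20 to 50 kb and 82.3 over 50 kb. Input density moved less, from 8.33 to 8.87 reads per kb, so the median fold was 2.11 in the narrowest class and 2.93 in the widest. Across the 57854 islands, which share both libraries, Spearman's rho between width and ChIP density was 0.484, and between width and fold 0.264. Among 32463 islands whose input density lay within 15% of the median, a subset chosen after seeing the data, the values were 0.546 and 0.521. In that subset the median density was 53.1 reads per kb under 5 kb and 79.6 over 50 kb. Width and density share the ChIP library and the calling step, which joins windows only where reads are dense enough, so this relation is a description.

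The share of a chromosome under islands ranged from 9.67% to 30.5%. Chromosome 20 was covered most, at 30.5% with 32.3 islands per Mb, followed by chromosome 11 at 29.1% and chromosome 10 at 27.4%. Chromosome 4 was covered least, at 9.67% with 13.2 islands per Mb, and only 8 of its 2454 islands were over 50 kb. Chromosomes 21 and 19 followed at 12.1% and 13.2%. Chromosome 1 held 141 of the 893 islands over 50 kb, chromosome 7 held 85, and chromosomes 6 and 10 held 79 each. The median ChIP density differed little between chromosomes, from 54.7 reads per kb on chromosome 4 to 60.4 on chromosome 19.

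Chromosome 13 stood apart by its input. Its median input density was 11.8 reads per kb, 1.40 times that of all autosomal islands, and its median fold was 1.70, the lowest of the 22 autosomes. Its median ChIP density of 60.0 reads per kb was nevertheless among the higher values, and its median width of 7.4 kb was the largest. The next highest median input was that of chromosome 1, at 1.13 times. Over all islands the fold fell with input density (rho = -0.690) while ChIP density was nearly unrelated to it (rho = 0.168). The fold has the input count as its denominator and ChIP density has a floor. A negative rho between fold and input is therefore in part fixed beforehand. The 10599 islands with input over 1.2 times the median had a median fold of 1.68 and 59.3 ChIP reads per kb, and the 7625 islands under 0.8 times had 2.98 and 53.8. Islands under 0.8 times were also narrower, with a median width of 4.0 kb against 5.6 kb for those over 1.2 times. A fold compared between loci thus moves with the input count. How much of this is counting error and how much is local input was not tested. Nor was a cause of local input, such as DNA copy number or mappability, tested.

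**Figure D2:**
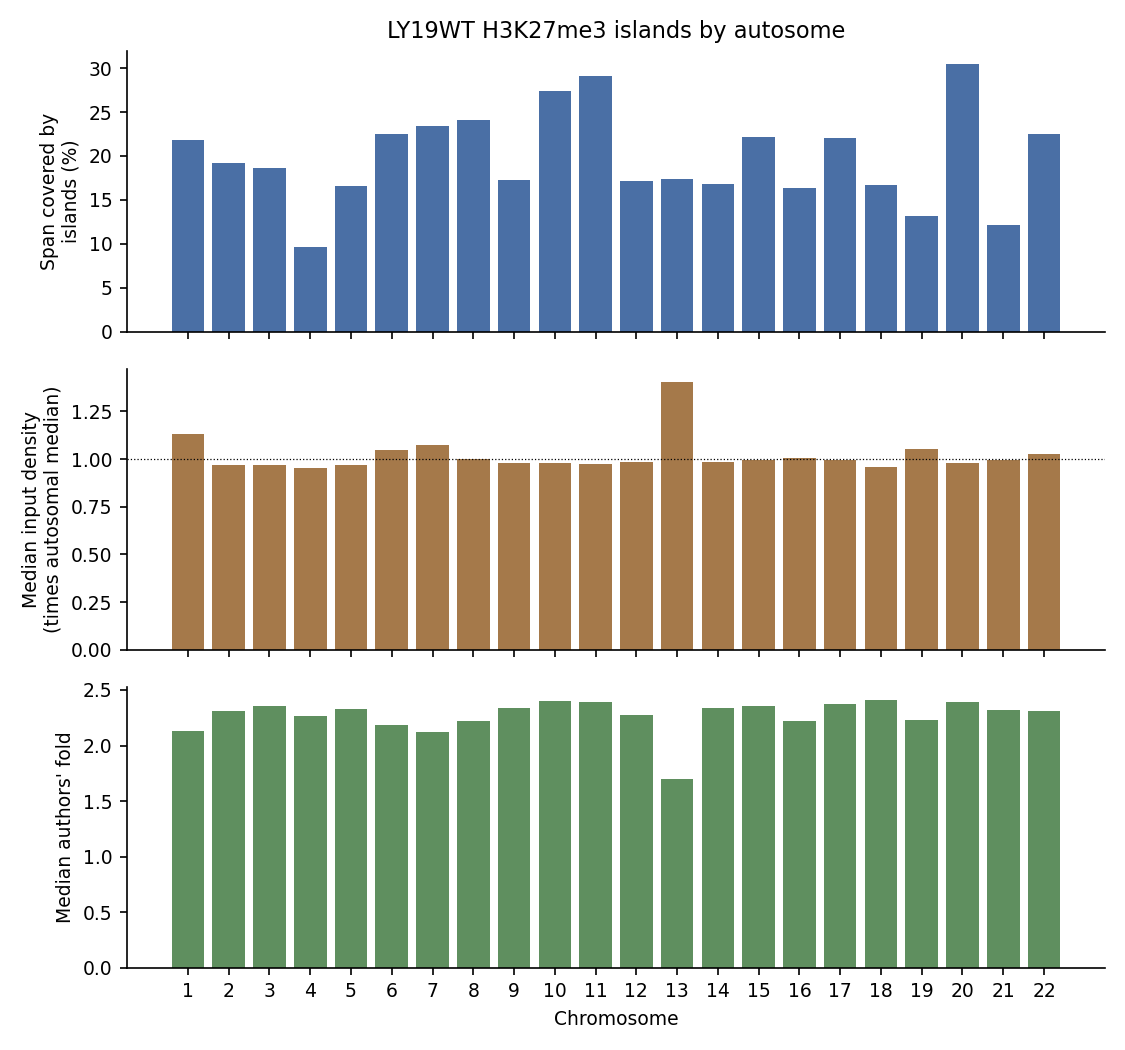
For each autosome, the share of the span covered by islands (%, top), the median input density of its islands relative to the autosomal median (middle, dotted line at 1) and the median authors' fold (bottom). Cover is lowest on chromosome 4 (9.67%) and highest on chromosome 20 (30.5%), and chromosome 13 has the highest input (1.40) and the lowest fold (1.70).

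The 20 widest islands, from 199.6 to 347.4 kb, lay in or beside a named locus in 17 cases, and no gene was placed at the other 3. The widest, on chromosome 12 from 2556201 to 2903600, held 47144 ChIP and 4334 input reads, or 135.7 reads per kb (134.5 to 136.9), with an authors' fold of 3.54. It lay over part of CACNA1C and ran past its end. CACNA1C encodes the pore subunit of a voltage-gated calcium channel of heart and brain. The next, from 2245401 to 2555400, lay in the same gene with 32693 ChIP and 3993 input reads and was less dense, at 105.5 reads per kb (104.3 to 106.6). Together with smaller islands they covered 98.6% of the CACNA1C locus.

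Further along chromosome 12, the island from 5252801 to 5541400 ended beside NTF3, the gene of the nerve growth factor relative neurotrophin-3, with 34006 ChIP and 3504 input reads and a fold of 3.16. On chromosome 1, the island from 208137401 to 208417400 spanned PLXNA2, a semaphorin receptor gene, with a fold of 3.33, and PLXNA2 was covered to 99.7%. Also on chromosome 1, the island from 165326401 to 165551600 was the densest of the 20, at 144.0 reads per kb (142.5 to 145.6) with 32438 ChIP and 2657 input reads and a fold of 3.97. It ran from the edge of LMX1A, a LIM homeodomain factor gene of dopaminergic neurons, across RXRG, a retinoid X receptor gene, and LRRC52. The adjacent island brought the cover of LMX1A to 99.1%.

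Among the 20 widest, 2 lay over genes of lymphocytes together with other genes. The island on chromosome 1 from 168495801 to 168739200, with 21439 ChIP and 2604 input reads and a fold of 2.68, spanned XCL1 and XCL2, the lymphotactin chemokine genes made by T and NK cells, and DPT, which encodes the matrix protein dermatopontin. On chromosome 11, the island from 117747801 to 117956000 held 18799 ChIP and 1689 input reads, with a fold of 3.62. It spanned IL10RA, the gene of the ligand-binding interleukin-10 receptor chain, and the serine protease gene TMPRSS13, and reached TMPRSS4 and the edge of FXYD6. Input there was 0.965 times the median, so this island was broad at ordinary input.

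Other wide islands lay in PLEKHG1 on chromosome 6 (150829401 to 151096800, fold 3.37), in SYNE1, a nuclear envelope protein gene (152698201 to 152927600, fold 2.89), and beside MAP3K7, the TAK1 kinase gene (91298401 to 91594800, fold 3.39). On chromosome 7 one overlapped RAMP3, a receptor activity modifying protein gene, with most of its length outside the locus (45197801 to 45438600, fold 2.68). PAPPA2, which encodes a pregnancy-associated protease, held 2 of the 20, the second of which reached ASTN1, a neuronal adhesion gene. Others lay in LHFPL6 on chromosome 13, PREX2 on chromosome 8 and DIRC3 on chromosome 2. Islands covered 97.9% of PREX2 and 96.9% of DIRC3.

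Input was raised under most of the widest islands. In 16 of the 20 it was over 1.2 times the autosomal median, against 18.3% of all islands and 35.2% of the 893 islands over 50 kb. It was highest, at 1.80 and 1.78 times, in the islands of chromosome 8 from 123349201 to 123651800 and from 126751601 to 126953600, whose folds of 2.42 and 2.31 were the lowest of the 20. The part of raised input in the width of these islands was not tested. The 4 islands with input within 20% of the median were those beside MAP3K7 and in PREX2, IL10RA and DIRC3.

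When islands were joined across gaps of up to 5 kb, 26601 domains resulted, of which 14539 were single islands. The joined domains over 100 kb numbered 1092 and made up 32.7% of the joined length, and 23 exceeded 500 kb. The widest ran over 1304.6 kb of chromosome 12, from 4943801 to 6248400, as 24 islands that filled 97.5% of it. It held 142067 ChIP and 15602 input reads at 1.46 times the median input, and took in the potassium channel genes KCNA1 and KCNA5, NTF3, the calcium-activated channel gene ANO2, and VWF, which encodes von Willebrand factor of endothelium and platelets. The CACNA1C domain on the same arm measured 784.6 kb. These were followed by the domain of PAPPA2 and ASTN1 on chromosome 1, at 782.4 kb.

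A domain of 708.2 kb on chromosome 1, from 152770801 to 153479000, lay in the epidermal differentiation complex. It consisted of 17 islands with 65879 ChIP and 7233 input reads and filled 96.6% of its span. The loci of IVL (involucrin), SPRR1B and LORICRIN, which encode proteins of the cornified envelope of skin, were each covered to 100%, as was S100A9, a calprotectin subunit gene of neutrophils and monocytes. On chromosome 5 a domain of 584.2 kb covered 91.7% of KCNIP1, a potassium channel interacting protein gene, and 98.0% of LCP2, the SLP-76 adaptor gene of T-cell receptor signalling. Its input was 0.963 times the median. Another on chromosome 5, of 552.6 kb, covered much of SLIT3, an axon guidance ligand gene covered to 93.1%, at 0.957 times the median input.

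**Figure D3:**
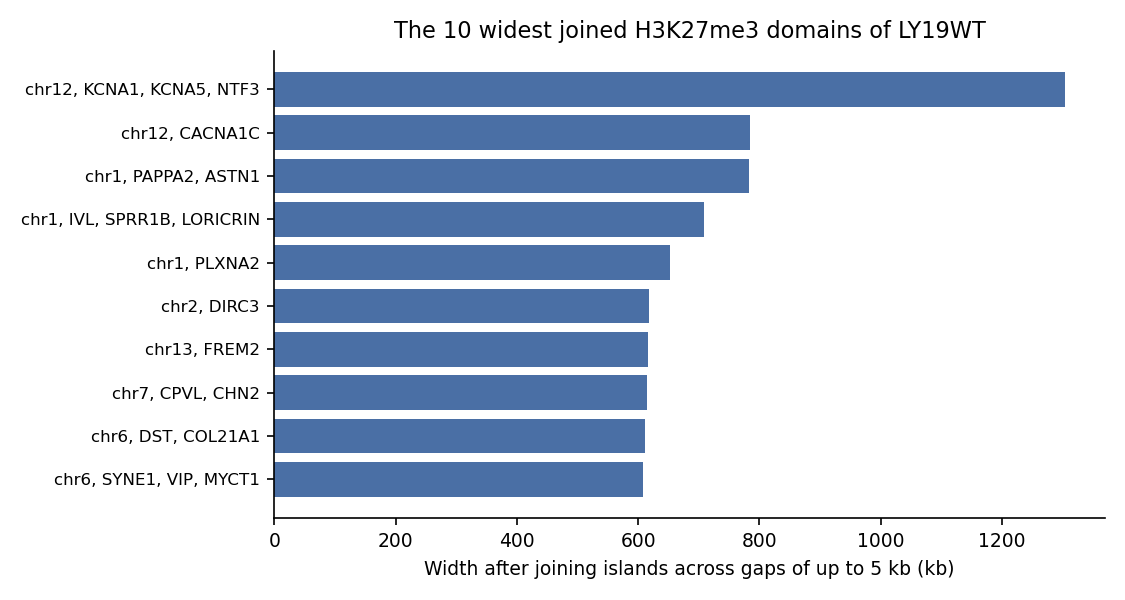
Width in kb of the 10 widest H3K27me3 domains after islands were joined across gaps of up to 5 kb, each bar named by its chromosome and up to 3 loci in it. The domain of KCNA1, KCNA5 and NTF3 reaches 1304.6 kb and that of CACNA1C 784.6 kb, and the tenth, of SYNE1, VIP and MYCT1, 608.8 kb.

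One joined domain, 550.2 kb of chromosome 11 from 121931401 to 122481600, held a microRNA cluster. It was made of 25 islands with 39826 ChIP and 4369 input reads, at 1.01 times the median input, and covered 93.2% of the host gene MIR100HG. The 10 kb windows of MIR125B1, MIRLET7A2 and MIR100 were covered to 100%. The island from 121956001 to 121999200 spanned MIR125B1 with 3584 ChIP and 329 input reads and a fold of 3.55, and the island from 122004401 to 122042000 spanned the other pair with 3135 and 323 reads and a fold of 3.16. The mature microRNAs are shown with the seed, bases 2 to 8, in capitals, as the domain covers genes of 3 different seeds; the cluster was chosen after the domain had been seen.
hsa-miR-100-5p: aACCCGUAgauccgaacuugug
hsa-let-7a-5p: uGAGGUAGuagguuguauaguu
hsa-miR-125b-5p: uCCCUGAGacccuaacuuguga
The let-7a mature sequence is shared by 3 hairpin genes in the RefSeq table (build GRCh38.p14) and that of miR-125b by 2, so the other copies lie elsewhere. The let-7 family restrains growth-promoting transcripts in many tissues.

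The densest islands were mostly far narrower than the widest. Density was ranked by the ChIP reads per kb in excess of scaled input, among islands of at least 2 kb with input up to 3 times the median. At these limits no island was among the 20 of both kinds, and the lowest of the densest had 108.6 excess reads per kb. With a minimum of 5 kb, the wide island across RXRG on chromosome 1, at 107.8, enters the 20 densest. At the minimum of 2 kb, the 20 ranged from 2.2 to 131.8 kb in width, from 127.6 to 353.0 ChIP reads per kb and from 3.24 to 6.72 in authors' fold. At the top, on chromosome 11 from 3667201 to 3679400 in ART1, an ADP-ribosyltransferase gene of muscle, stood 4306 ChIP and 297 input reads. Its density was 353.0 reads per kb (342.5 to 363.7), its fold 4.72 and its input 2.89 times the median. The next lay on chromosome 20 from 47126801 to 47139000 in no named locus, with 3522 ChIP and 211 input reads, 288.7 per kb (279.2 to 298.4) and an input of 2.06 times. The third, on chromosome 22 from 51081401 to 51086400, had 1181 and 68 reads and a fold of 5.65.

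Of the 20 densest, 9 had input under 1.2 times the median, and 8 of these lay in or beside a named locus. The island on chromosome 9 from 126762601 to 126773400, beside LHX2, a LIM homeodomain factor gene of forebrain and eye, held 1950 ChIP and 100 input reads, 180.6 reads per kb (172.6 to 188.8), with a fold of 6.35. A second and wider island in LHX2, from 126775801 to 126792400, had 60.2 reads per kb and a fold of 2.02, so of these neighbouring islands one lay above the 99th percentile of density over all islands and the other near their median.

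On chromosome 6, a single island of 35.6 kb from 31528801 to 31564400 spanned the tumour necrosis factor locus. It held 5116 ChIP and 334 input reads, 143.7 reads per kb (139.8 to 147.7), with a fold of 4.99 and an input of 1.12 times the median. Within it lay TNF, LTA and LTB, which encode tumour necrosis factor and lymphotoxins alpha and beta, and LST1, each covered to 100%, and NCR3, the NKp30 receptor gene of NK cells, reached its edge. On chromosome 1 the island from 25240601 to 25256000 lay in RUNX3, a Runt factor gene of cytotoxic T cells and neurons, with 2134 ChIP and 138 input reads, 138.6 reads per kb (132.8 to 144.6) and a fold of 5.03. Islands covered 74.3% of the RUNX3 locus.

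The remaining dense islands in named loci were those in MDGA1 (37660401 to 37665400 on chromosome 6, fold 5.18), ARHGEF3 (57102801 to 57112800 on chromosome 3, fold 5.87), EGR3 (22553401 to 22560400 on chromosome 8, fold 5.53), CYS1 (10211601 to 10219800 on chromosome 2, fold 4.54) and NTNG2 (135037801 to 135045400 on chromosome 9, fold 6.72). EGR3 encodes an early growth response factor induced by antigen receptor signalling, ARHGEF3 a guanine nucleotide exchange factor, and NTNG2 a netrin-G ligand of neurons. The island at ATF3, a stress-response factor gene (212772601 to 212781400 on chromosome 1), had a fold of 4.22 at 1.55 times the median input. That between NES, the nestin gene of neural stem cells, and CRABP2, a retinoic acid binding protein gene, spanned 19.6 kb with 3053 ChIP and 223 input reads. The island from KCNA1 up to KCNA5, at 131.8 kb the widest of the dense ones, held 20061 ChIP and 1593 input reads, 152.2 reads per kb (150.1 to 154.3). Its fold was 4.10 at 1.44 times the median input. Near the end of chromosome 19, from 71601 to 117000, an island at the olfactory receptor gene OR4F17 had 183.0 reads per kb at 2.18 times the median input.

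The ranking by fold gave other islands. Its top 10, among islands of at least 2 kb and 10 input reads, ranged from 6.72 to 8.36 in fold. Their ChIP density ran from 51.7 reads per kb, under the median of all islands, to 127.6, with a median of 83.5. In 8 of them the input was under 0.6 times the median, as in NFATC1 on chromosome 18 (77156001 to 77159600, 266 ChIP and 11 input reads, fold 7.87) and LTBP4 on chromosome 19 (41104801 to 41108200, 341 and 14 reads, fold 7.93). With so few input reads the intervals are wide: 1.53 to 5.47 input reads per kb in NFATC1. Some of these 8 were dense nonetheless, with 100.3 reads per kb in LTBP4. The other 2 had the highest ChIP density of the 10. They were NTNG2, also among the densest, and the island at GABBR1, a GABA-B receptor subunit gene (29596601 to 29600200 on chromosome 6, 120.6 reads per kb, fold 6.73).

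Ranking by raw ChIP density brought in islands of very high input. Of its top 10, 9 had input over 1.2 times the median. The island on chromosome 7 from 100546001 to 100555000 had 206.8 ChIP reads per kb with 45.7 input reads per kb, 5.43 times the median, and a fold of 1.47. On chromosome 1 the island from 148833201 to 148929000 had 192.0 ChIP and 29.9 input reads per kb and a fold of 2.09. Over the whole list 23 islands had input over 3 times the median, and their folds ran from 1.1 to 2.09 with a median of 1.35.

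**Figure D4:**
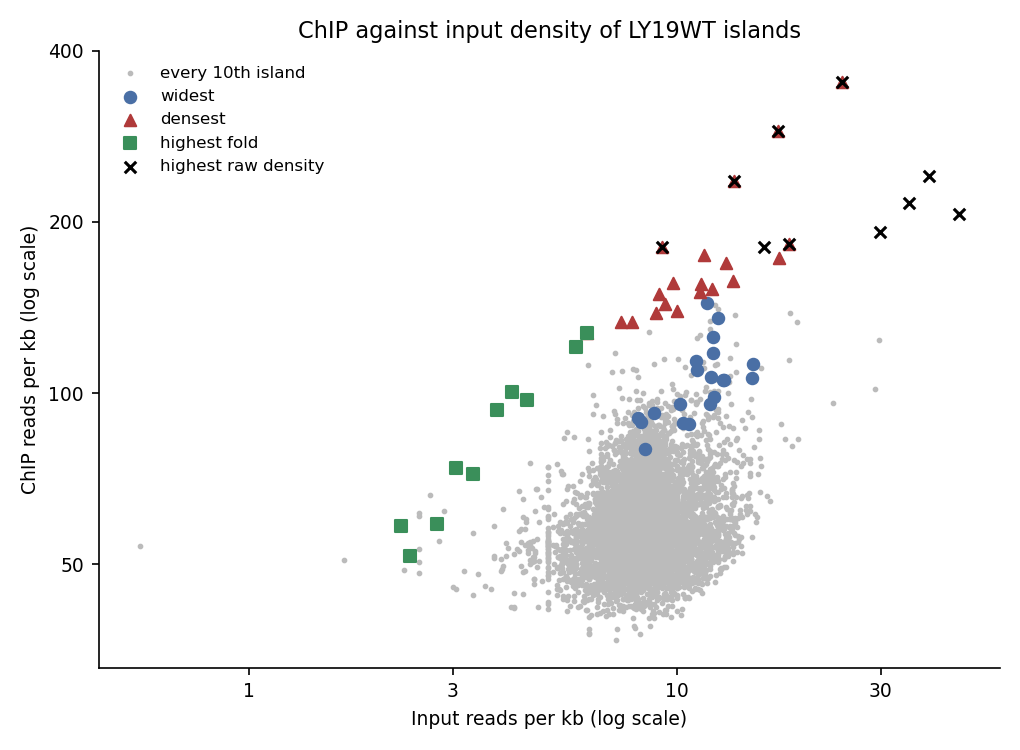
ChIP reads per kb against input reads per kb, both on log scales, with 1 grey point for every 10th island and coloured marks for the 20 widest, 20 densest, 10 highest in fold and 10 highest in raw density. The widest sit at 79.8 to 144.0 ChIP reads per kb. Their median of 105.4 lies above the 99th percentile of all islands, 100.2. The densest sit above 127.6 and the highest folds at the left where input is low. At the far right, 4 of the crosses have 29.9 or more input reads per kb.

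To see which gene loci lay under islands, 148 loci in 10 lists were examined, each as its hg19 locus rounded outward to 10 kb. A locus was counted as covered when islands made up at least 50% of it. Densities and folds given for a locus count each island that reaches into it as a whole, with any part outside. For comparison, 19.1% of 55491 tiles of 50 kb along the autosomes were covered in this sense, 56.9% held no island, and the median tile was covered to 0%. With tiles of 20 and 100 kb, 19.9% and 18.2% were covered and 64.5% and 49.7% held no island. Over all 148 loci 41 were covered, 55 held no island and the median cover was 17.9%. The lists were chosen by name and are not random samples of genes.

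Among the HOX clusters, which pattern the body axis, islands covered 79.8% of HOXC and 61.8% of HOXB, 7.5% of HOXA and none of HOXD. HOXC held 12 islands, counted with those crossing its borders, at a pooled 99.7 reads per kb and 3.71 times the scaled input. The widest of these, 181.2 kb from 54151201 to 54332400 on chromosome 12, reached only its edge, with a fold of 3.69. This island held 18955 of the 27387 pooled ChIP reads, so the pooled values describe mostly sequence beside the cluster. The 22 islands of HOXB had 80.1 reads per kb and a fold of 3.17. The 2 islands of HOXA had 65.9 reads per kb and a fold of 1.66, and the HOXD cluster lay in a stretch of 2433 kb without islands. Cover thus ran from 0% to 79.8% among the 4 clusters.

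Of 37 other developmental factor loci, 13, or 35.1%, were covered, 20 held islands over less than 50%, and 4 held none. The median cover was 40.0%. Of the 50 kb tiles, 19.1% were covered and 56.9% held no island. TBX20 lay wholly within an island of 68.2 kb from 35232601 to 35300800 on chromosome 7, with 113.6 reads per kb, a fold of 3.21 and an input of 1.37 times the median. Islands covered 96.4% of PAX2, a kidney and eye factor locus, at 91.4 reads per kb and a fold of 3.50, and 96.0% of GATA4, a heart and gut factor locus, at 101.5 reads per kb and 3.76. SOX2, a pluripotency and neural factor locus, was covered to 96.0%, and its main island from 181430201 to 181443200 on chromosome 3 had 109.1 reads per kb, a fold of 5.02 and an input of 0.842 times the median. PAX3, PAX7, GATA2 and GATA6 were covered to between 71.2% and 79.1%. By contrast, the islands of PAX6, an eye and brain factor locus, covered 9% of it, those of SOX1 4%, and SOX11, TBX1, TBX2 and LHX5 held none. SOX11 and TBX1 lay in stretches without islands of 706.2 and 476.0 kb.

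All 12 WNT ligand loci held an island, and 4 of them, or 33.3%, were covered. Of the 50 kb tiles, 56.9% held no island and 19.1% were covered. WNT1 was covered to 96.0% by 1 island from 49364401 to 49379600 on chromosome 12 with a fold of 3.27, which also reached WNT10B. WNT10A was covered to 83.0% with a fold of 3.86, WNT2 to 80% and WNT6 to 60%. The other 8 ranged from 17.3% for WNT11 to 43.0% for WNT3A. Of 9 ion channel loci, many of them long, 6, or 66.7%, were covered, against 18.2% of 100 kb tiles. Beside CACNA1C and KCNA1 these included CACNA1E, covered to 93.9%, and KCNA5, to 86.0%, whereas CACNA1A was covered to 18.5%, at 52.7 reads per kb and a fold of 2.02. At the KCNA5, KCNA1 and CACNA1C loci the widest island had input of 1.44 to 1.48 times the median. The other covered channel loci were KCNA6, at 1.57 times, CACNA1E, at 1.39 times, and GRIN2A, at 1.12 times. KCNA1 and KCNA5 share their widest island, and KCNA6 and CACNA1C lie on the same chromosome, so the covered loci are not separate cases.

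**Figure D5:**
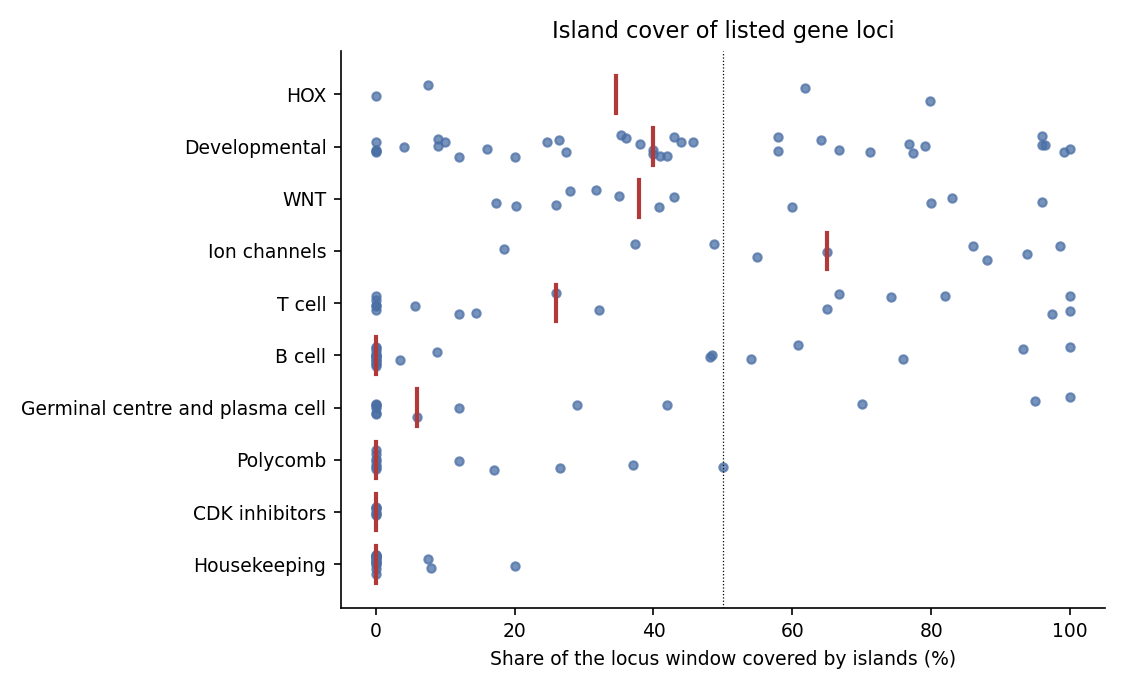
Share (%) of each of 148 locus windows covered by islands, 1 point per locus, by gene list; red bars are list medians, the dotted line marks 50%, and the vertical scatter within a list carries no meaning. No CDK inhibitor or housekeeping locus passes 50%, which 19.9% of 20 kb tiles reach, and the B-cell list spreads from 0% to 100%.

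Of 16 housekeeping loci 13 held no island and none was covered. Their windows had a median of 20 kb, and of 20 kb tiles 64.5% held no island and 19.9% were covered. The largest cover of a housekeeping locus was 20% at ACTB, from 1 island of 5.0 kb beside the gene with a fold of 1.81. All 6 CDK inhibitor loci, also with a median window of 20 kb, held no island. Both lists are short, so these counts are not read as results about the genes. CDKN2A and CDKN2B, the tumour suppressor pair that Polycomb represses in many dividing cells, lay in a stretch of 3184 kb without islands, CDKN1B in one of 1034 kb and CDKN1A in one of 392.0 kb. Of 12 loci of Polycomb subunits and of the demethylase gene KDM6B, 7 held no island, among them EZH2, SUZ12, EED and EZH1, all of the methyltransferase complex. That share lies near the 56.9% of 50 kb tiles without an island, so the count does not set the list apart from the autosomes. CBX8 was covered to 37.0% by an island from 77772601 to 77783400 on chromosome 17 with 91.9 reads per kb and a fold of 3.89, and RING1 to 50%, on the limit. A locus without islands was not shown to lack the mark or the DNA, since reads outside islands were not analysed here, up to 1.15% of the islands as called may not be in the list, and a weak signal falls under the floor of about 42.5 reads per kb.

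Of 22 B-cell loci, 13 held no island and 5, or 22.7%, were covered, and the median cover was 0%. These shares lie near those of the 50 kb tiles, of which 56.9% held no island and 19.1% were covered, so the counts set the list apart from the autosomes in neither direction, and single loci are described. IKZF1, BCL11A and CD40 lay in the middle, at 48.1%, 48.5% and 54.0%. CD79A, CD79B and CD22, which encode surface proteins of B cells, held none in windows of 10, 10 and 20 kb. The stretches without islands there were short, at 54.0, 61.4 and 61.6 kb, and 64.5% of 20 kb tiles held no island. PAX5 over 210 kb and EBF1 over 410 kb, the loci of the factors that set B-cell identity, also held none. They lay in stretches without islands of 592.0 and 1632 kb. BACH2, a transcriptional repressor gene of B cells, was likewise free over 380 kb. MS4A1, which encodes the CD20 antigen, was in contrast covered to 100% by 1 island of 21.2 kb on chromosome 11, with 1862 ChIP and 173 input reads, 87.8 reads per kb, a fold of 3.50 and an input of 0.970 times the median. BLK, a B-lymphoid tyrosine kinase gene, was covered to 93.3%. Its widest island, 102.2 kb from 11315201 to 11417400 on chromosome 8, had 127.8 reads per kb and a fold of 4.82. CD37 was covered to 76.0% and POU2F2 to 60.8%. Single B-cell loci thus differed, with no island at CD79A, CD79B and PAX5 and full cover at MS4A1. No pattern over the list is drawn from them. Expression was not measured, and the allele or cell fraction that carries the mark cannot be told from counts.

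Of 13 germinal centre and plasma cell loci, 3, or 23.1%, were covered and 6 held no island. Of the 50 kb tiles, 19.1% were covered and 56.9% held no island. The counts lie near these shares, so only single loci are described. IRF8, a germinal centre regulator gene, lay wholly within an island of 110.6 kb from 85896801 to 86007400 on chromosome 16, with 11317 ChIP and 1002 input reads, 102.3 reads per kb and a fold of 3.68. TNFRSF17, the gene of the plasma cell receptor BCMA, was covered to 70.0% with a fold of 2.40. BCL6, the master repressor gene of the germinal centre, was covered to 12% by 1 island of 4.8 kb beside the gene with 48.8 reads per kb and a fold of 1.86. PRDM1 and XBP1, which drive plasma cell differentiation, held none, nor did MYBL1, GNA13, LMO2 and CD38. IRF4 was covered to 42.0%.

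Of 17 T-cell loci, 7, or 41.2%, were covered and 5 held none, with a median cover of 26.0%. Of the 50 kb tiles, 19.1% were covered and 56.9% held no island. The costimulatory cluster of chromosome 2 was covered in full or nearly so. CD28 lay in an island of 89.2 kb from 204525201 to 204614400 with 8904 ChIP and 741 input reads, 99.8 reads per kb and a fold of 3.91, CTLA4 in one of 93.2 kb from 204650801 to 204744000 with a fold of 2.96, and ICOS was covered to 97.3%. Input at these islands was 0.988 to 1.02 times the median. The 60 kb window of the CD3 genes CD3E, CD3D and CD3G was covered to 65.0%, TBX21, the T-bet locus, to 82.0% and GATA3 to 66.7%. The pooled fold at the CD3 window was 3.65. It came mostly from an island of 105.6 kb, wider than the window, with 10737 of the 12993 ChIP reads and a fold of 3.92. It is thus not a value of the window alone. CD2, CD8A, ZAP70, CD5 and IL7R held no island. T-cell genes of 1 lineage thus differed in cover from 0% to 100% within this B-cell line.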

How the data were processed

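H3K27me3 ChIP-seq islands of LY19WT were analysed from 1 list that the authors deposited, made from 3 merged ChIP libraries and 1 input library. The submitters' processing notes name build hg19 and the tools SICER, bedtools, SAMtools (version 1.3.1) and Bowtie2 (version 2.2.9). Per the labels the islands were called on merged replicates against input. The deposited counts are raw ChIP and input reads per island. As a linear ratio, the authors' deposited fold equals ChIP over input divided by a constant of 3.07 found in each of the 57854 islands. The p-value and FDR deposited with each island were used for ranks and limits only, and the FDR did not exceed 0.001.

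Island starts and ends lay on multiples of 200 bp and are given as 1-based hg19 positions, and the smallest gap was 800 bp. Density is reads per kb of island, and excess density subtracts input density times 3.07. Joined domains bridge gaps of up to 5 kb. FDR, p-value and rank implied that up to 1.15% of the list as called may not be in the list analysed here.

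Gene positions were written down by hand from general knowledge of hg19, rounded outward to 10 kb, after islands had been seen. This departs from the planned analysis, which was to give islands by position alone. The limit of 50% cover was set after the islands had been seen and before cover of the lists was computed. Names were checked against the RefSeq gene table of GRCh38.p14 without converting positions: 208 of 208 loci lay on the same chromosome, 187 of 187 neighbouring pairs were in the same order, and 199 spans were within 25 kb. The windows of GABBR1 and TBX18 were narrowed after that comparison. Members and lists were chosen with earlier results of these data known.

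Named islands were the 20 widest, the 20 highest in excess density (at least 2 kb, input up to 3 times the median), the 10 highest in fold (at least 2 kb and 10 input reads) and the 10 highest in raw density. The planned count of start sites in islands needed an hg19 annotation and was not run. Computation used scipy 1.17.1, pandas 2.3.3 and numpy 2.4.6 under Python 3.11.15, and was tested on 5000 simulated islands. Alternatives were FDR limits of 1e-05 and 1e-10, removal of high-input islands, joining, other density measures and, added after seeing the data, islands of ordinary input and other limits of locus cover. Some loci that enter the counts are not reported here by name.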

Additional observations from a re-analysis of the deposited data

How the results depend on the processing

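No paired analysis was possible because the replicates were merged before calling and no test was made, and for the same reason no replicate could be left out in turn. Alternatives on start sites, on 1 kb around them and on gene bodies were not run, as no hg19 annotation was used. At an FDR limit of 1e-05 the islands covered 548.7 Mb, with a median width of 6.0 kb, 12.8% of the length in islands over 50 kb, 57.6 ChIP reads per kb and a fold of 2.30. At 1e-10 these were 532.1 Mb, 6.4 kb, 13.2%, 58.4 reads per kb and 2.36, and the number of islands, 51672, stayed within 1.5 times of 57854. Without islands of input over 3 times the median, they were 552.8 Mb, 12.6% and 57.4 reads per kb, with width and fold as before. Joining across gaps of up to 5 kb gave 26601 domains over 615.3 Mb, gaps included, with a median of 9.4 kb and 53.1% of the length over 50 kb. Spearman's rho of width and density was 0.264 with fold, 0.421 with excess density, 0.530 for islands of at least 5 kb and 0.546 at ordinary input. Among islands of at least 5 kb the lowest of the 20 densest had 107.8 excess reads per kb. It was the island across RXRG, which is also among the 20 widest. Ranking by raw density kept 8 of the 20 densest. With loci counted at 80% cover, 0 HOX, 5 developmental, 0 Polycomb, 2 B-cell and 4 T-cell loci were covered. Counting any island gave 33 developmental, 12 WNT, 5 Polycomb, 9 B-cell, 7 germinal centre and plasma cell, 12 T-cell and 3 housekeeping loci. At 1e-10 no list count moved by more than 1.5 times. Merged replicates, an input library with a median of 49 reads per island and the floor of ChIP density limit what can be seen.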

Other observations

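Long stretches of the autosomes held no island. The longest were 22.6 Mb of chromosome 1 from 121141801 to 143755600, which spans the centromere, and 18.5 Mb on the long arm of chromosome 4 from 128508201 to 146991200. On chromosome 3 a stretch of 12.2 Mb from 75395201 to 87594400 was parted by 1 island from the next, of 10.3 Mb, which began at 87601201. A stretch of 10.6 Mb lay on chromosome 21 from 18816201 to 29378000. The 290 islands of chromosome X in the list were not analysed here.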
